A study of Mus musculus with 12 samples.

Results

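Retinoic acid, the hormone-like derivative of vitamin A, is made, bound, broken down and read by a small set of gene products, and 9 of their genes were followed here in the cortex of E4FAD mice. The genes were chosen by symbol for their role in the pathway: Aldh1a1, Aldh1a2 and Aldh1a3 for synthesis, Rbp4 and Stra6 for retinol transport, Crabp1 and Crabp2 for binding in the cytosol, Cyp26b1 for degradation and Rarb for the response. The choice was made with earlier results of these data known. All 9 were found, by mouse Ensembl identifier, among the 50563 genes of the count table. RNA-Seq libraries were made from bulk cortex, 1 per mouse, with 7 mice in the control group (CTRL) and 5 in the treated group (DPAn-6). All 12 mice were E4FAD, labelled APOE4+/+ and 5FAD-/+, so that both groups carried human APOE4 in place of the mouse gene and the familial Alzheimer's disease transgenes, which are driven by a neuronal Thy1 promoter. DPAn-6 is the omega-6 docosapentaenoic acid, given as its ethyl ester by daily gavage at 700 mg/kg for 3 weeks. CTRL mice were gavaged with vehicle, and both groups received the same antioxidants. Of the CTRL mice, 2 were 12 and 5 were 14 months old, and of the DPAn-6 mice, 2 were 12 and 3 were 14 months old. CTRL held 4 females and 3 males and DPAn-6 held 3 females and 2 males, with sex given per group and not per mouse. The comparison asks whether mRNA levels of the pathway differed between mice given the fatty acid and mice given vehicle.

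As background, retinol travels in blood bound to RBP4, which is itself carried by transthyretin (Ttr), and enters some cells through the receptor STRA6. Retinol dehydrogenases turn it into retinal, the ALDH1A enzymes oxidise retinal to retinoic acid, and CRABP proteins carry the acid in the cytosol. CYP26 enzymes clear it, and elsewhere it binds the receptors RARα, RARβ and RARγ, which sit with retinoid X receptors on repeated motifs in DNA. In the adult brain the meninges are a known site of Aldh1a2 expression, the striatum is a known site of Rarb expression, and Rbp4 marks deep-layer projection neurons of the cortex.

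The CTRL libraries held 15339098 to 19500154 counts on genes and the DPAn-6 libraries 15208803 to 26520251. All 8 cortical excitatory neuron markers were tested, and their summed level was 2210 to 2842 CPM (counts scaled to the same library total) in CTRL and 2497 to 2676 in DPAn-6. The libraries differed in transcripts of neighbouring tissue. CTRL 2, CTRL 5 and CTRL 3 held choroid plexus transcripts. Their summed CPM over the 13 choroid markers was 282, 185 and 84.0, against 9.92 to 16.9 in the other 9 libraries. No marker of that list was at 0 in all libraries, and the 8 that passed the filter on low counts gave its mean log2 CPM. Ttr, which the choroid plexus makes in large amounts, ranged from 6.004 to 1530 CPM in CTRL and from 1.79 to 14.7 in DPAn-6. Meningeal fibroblast markers were lower in DPAn-6, at 128 to 228 summed CPM over 16 genes against 204 to 359 in CTRL. All 16 had lower fitted levels, and 7 passed an adjusted p of 0.05 in edgeR's quasi-likelihood test. Over all genes tested, 51.3% were lower in DPAn-6 and 1.14% were lower and passed. In bulk tissue, fewer cells of a type and less RNA per cell cannot be told apart.

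The DNA end of the pathway is best known at Rarb, whose own promoter carries a retinoic acid response element. The 250 bases before the Rarb start in RefSeq (GRCm38.p6, chr14:16575477-16575726, minus strand, read along the gene, at a start inside its annotated span) are shown here because they held the only match among the genes followed.

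Rarb promoter: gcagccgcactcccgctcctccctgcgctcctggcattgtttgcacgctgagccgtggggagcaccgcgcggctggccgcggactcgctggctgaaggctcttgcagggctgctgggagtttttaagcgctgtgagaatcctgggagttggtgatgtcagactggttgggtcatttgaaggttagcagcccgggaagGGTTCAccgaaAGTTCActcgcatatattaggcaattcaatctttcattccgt

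The capitals mark a pair of receptor core sites with 5 bases between them, at positions −53 to −37 from the start (chr14:16575513-16575529). Promoters of 250 bases before to 50 after the start were searched on both strands for direct repeats of a core site with 1, 2 or 5 bases between the sites. The core site was the known consensus AGGTCA or one of its variants, of which one is written AGTTCA, another is written GGGTCA and the last is written GGTTCA. Repeats spaced by 5 bases stood in 32 of 32851 mouse promoters (0.097%), those spaced by 1 in 73 (0.222%) and those spaced by 2 in 88 (0.268%). RefSeq promoters were matched for 7 of the 9 genes, 12 promoters in all, and 1 of the 12 held a repeat. Aldh1a3 and Crabp2 had no matched promoter. With AGGTCA alone as the core site, 0 of the 12 promoters and 19 of all promoters (0.058%) held a repeat. Among 49 other retinoid genes, 35 had promoters and 2 of these genes held a repeat, whose sequences are set beside that of Rarb.

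Rarb, 5 bases between: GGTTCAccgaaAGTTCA
Cyp26a1, 5 bases between: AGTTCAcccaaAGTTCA
Bco1, 1 base between: AGGTCAaAGGTCA

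The Cyp26a1 element lay at −32 to −16 (chr19:37697776-37697792) and the Bco1 element at −56 to −44 (chr8:117095809-117095821), both on the minus strand of their promoters. Cyp26a1, the inducible enzyme of retinoic acid clearance, had 0 to 3 counts in every library, and Bco1, which cleaves beta-carotene, also had 0 to 3, so neither was tested. A motif match describes letters only.

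None of the genes that could be tested passed the threshold between the groups. Of the 8 that passed the filter on low counts, 0 had an adjusted p below 0.05 by edgeR's quasi-likelihood test with Benjamini-Hochberg adjustment over 15688 genes, where 1.55% of all genes passed (243 genes, with 0.408% of all genes higher and 1.14% lower in DPAn-6). At an unadjusted p below 0.05 there were 5 of the 8, with Rbp4 higher and Aldh1a1, Aldh1a2, Stra6 and Crabp2 lower in DPAn-6, where 14.5% of all genes reached that level (5.51% higher and 9.02% lower). By an exact permutation test, two-sided, of the difference in mean log2 CPM over all 792 splits of the mice, the same 5 had a p below 0.05, as did 15.8% of all genes tested. By DESeq2, which kept all 9, 3 had an adjusted p below 0.05, namely Aldh1a1, Crabp2 and Rbp4, where 3.87% of the genes it tested passed (671 of 17327). In the fit 3 of the 8 were higher and 5 lower, where 51.3% of all genes were lower. Their median log2 fold change was −0.27, against −0.0047 over all genes tested. Since the genes were chosen with earlier results known, these shares are set side by side only as a description. Log2 fold changes are DPAn-6 against CTRL, and log2 CPM was computed with a pseudocount of 0.5.

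**Figure D1:**
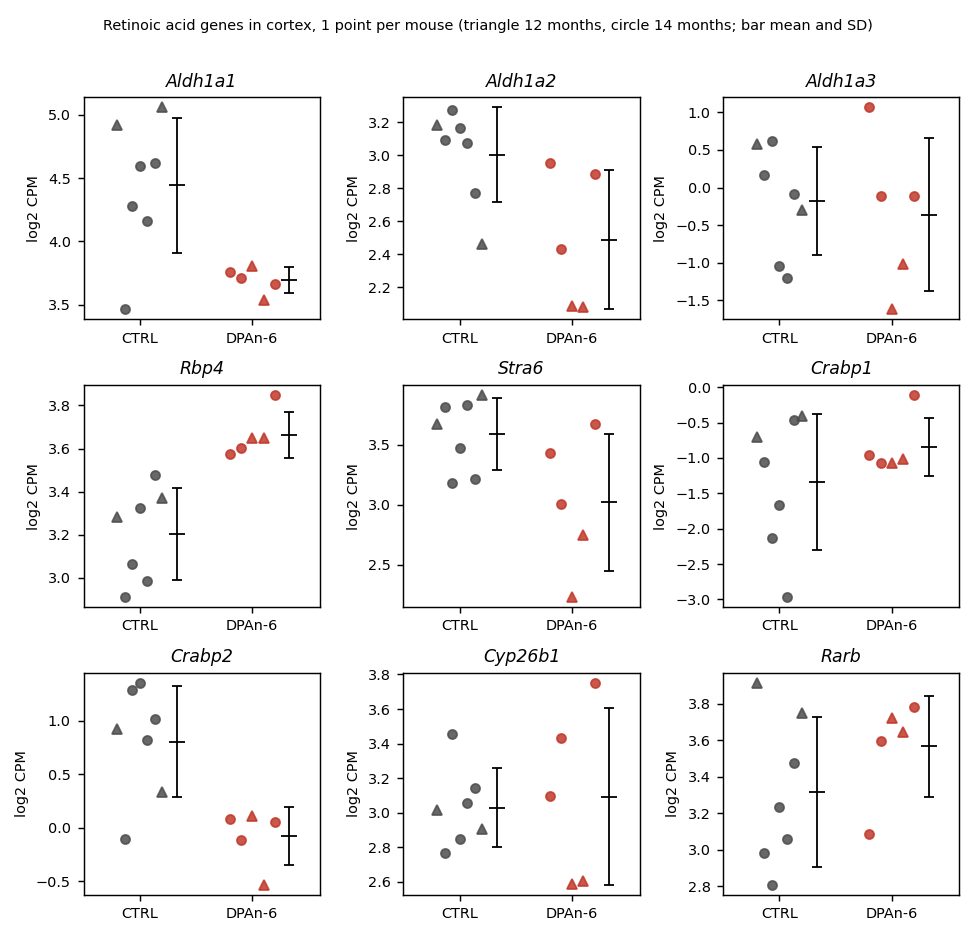
Log2 CPM of the 9 genes in each mouse, CTRL in grey and DPAn-6 in red, with triangles for 12-month and circles for 14-month mice and bars for the group mean and SD; each panel has its own axis. The 5 DPAn-6 points of Rbp4 lie above all 7 CTRL points, and those of Aldh1a1 lie close together, below all CTRL points but that of CTRL 2.

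Of the enzymes of synthesis, Aldh1a1 and Aldh1a2 had lower fitted levels in DPAn-6, and Aldh1a3 had too few counts to tell. Aldh1a1 (ENSMUSG00000053279; GRCm38, chr19:20492715-20643465, plus strand) encodes a retinaldehyde dehydrogenase that oxidises retinal. It had 13.5, 13.1, 13.9, 11.6 and 12.6 CPM in DPAn-6 mice 1 to 5, and a lowest, median and highest value of 11.02, 24.1 and 33.3 CPM in CTRL. The DPAn-6 mice lay within a narrow band, and only CTRL 2 was lower than any of them. On the log2 CPM scale CTRL had a mean of 4.44 ± 0.53 (SD, n = 7) and DPAn-6 one of 3.69 ± 0.10 (SD, n = 5). The log2 fold change was −0.85 (SE 0.20, 95% interval −1.30 to −0.39), with an adjusted p of 0.0533 by edgeR and an exact permutation p of 0.0177. With 1 library left out the adjusted p by edgeR ran from 0.0101 without CTRL 2 to 0.156 without DPAn-6 4. Among these omissions it was below 0.05 only without CTRL 2 or without CTRL 3 (0.0156). Without CTRL 3, more genes passed in all, 953 against 243. The adjusted p of Aldh1a1 was 0.00499 (log2 fold change −1.04) without CTRL 2 and CTRL 5 together. The 3 CTRL libraries with choroid plexus transcripts had the 3 lowest CTRL values of Aldh1a1, 11.02 CPM in CTRL 2, 17.9 in CTRL 5 and 19.4 in CTRL 3, and the 12-month CTRL mice had the highest, 30.2 and 33.3. With the choroid plexus list as a covariate the log2 fold change was −1.22 (adjusted p = 0.00101, edgeR). That covariate varied mainly through CTRL 2, CTRL 3 and CTRL 5, and no DPAn-6 mouse reached their level. With the meningeal list as a covariate the log2 fold change was −0.98 (SE 0.34) and did not pass an adjusted p of 0.05 by edgeR. In the 14-month mice alone, that of Aldh1a1 was −0.59 (SE 0.23, adjusted p = 0.463, edgeR). Its near copy Aldh1a7 had 3 to 28 counts per library, against 172 to 593 for Aldh1a1, and reads that fit both genes cannot be assigned from the table.

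Aldh1a2 (ENSMUSG00000013584; chr9:71215789-71296243, plus strand) encodes the retinaldehyde dehydrogenase that supplies most retinoic acid in the embryo and is expressed in meninges. The values were 7.72, 5.38, 4.22, 4.21 and 7.39 CPM in DPAn-6 mice 1 to 5 and 5.50, 8.52 and 9.65 CPM (lowest, median and highest) in CTRL. In DPAn-6, 3 mice were below every CTRL mouse and 2 were within the CTRL range. Its mean log2 CPM was 3.01 ± 0.29 (SD, n = 7) for CTRL and 2.49 ± 0.42 (SD, n = 5) for DPAn-6. Between them the fitted log2 fold change was −0.51 (SE 0.18, 95% interval −0.91 to −0.10; adjusted p = 0.197 by edgeR, exact permutation p = 0.0328). Without any 1 of CTRL 1 to 5 or DPAn-6 3 or 4 the exact permutation p was above 0.05, at 0.0519 to 0.0697. The gene ran with the meningeal fibroblast list, which does not hold it. After each group was centred on its mean, Pearson's r between Aldh1a2 and the mean log2 CPM of the list was 0.951 over 12 mice (permutation p = 1e-05, the smallest that 100000 resamples can give, adjusted 0.0009 over 90 pairs of gene and list), and Spearman's rho was 0.951 (permutation p = 0.00016). With the mice most distant from the median Aldh1a2 value left out, DPAn-6 3 and 4, r was 0.941, and without CTRL 2 and CTRL 5 it was 0.964. Both values come from the same libraries and share their depth. With that list as a covariate the log2 fold change of Aldh1a2 was 0.30 (SE 0.16, adjusted p = 1.00, edgeR), the opposite direction, and 0 of all genes passed in that fit (586 at an unadjusted p below 0.05). The list itself differed between the groups (3.15 ± 0.18 log2 CPM, SD, n = 7, against 2.499 ± 0.34, SD, n = 5, exact permutation p = 0.00253). The part of meningeal tissue in the group difference was not tested further.

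Aldh1a3 (ENSMUSG00000015134; chr7:66390890-66427517, minus strand), the third enzyme of the family, was near the detection limit, with 6 to 38 counts per library. DPAn-6 mice 1 to 5 had 2.07, 0.897, 0.302, 0.460 and 0.905 CPM, and CTRL mice had 0.410, 0.917 and 1.499 CPM (lowest, median and highest). The DPAn-6 group held both the highest and the lowest of the 12 values. Its fitted difference was −0.03 on the log2 scale (SE 0.43, 95% interval −0.99 to 0.92, adjusted p = 0.984 by edgeR, exact permutation p = 0.732). Its sign changed when any 1 of 5 libraries was left out (CTRL 1, 2 or 3 or DPAn-6 3 or 4), with values from −0.53 to 0.20 over all 12 omissions. At this depth no difference was detectable within an interval that wide.

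**Figure D2:**
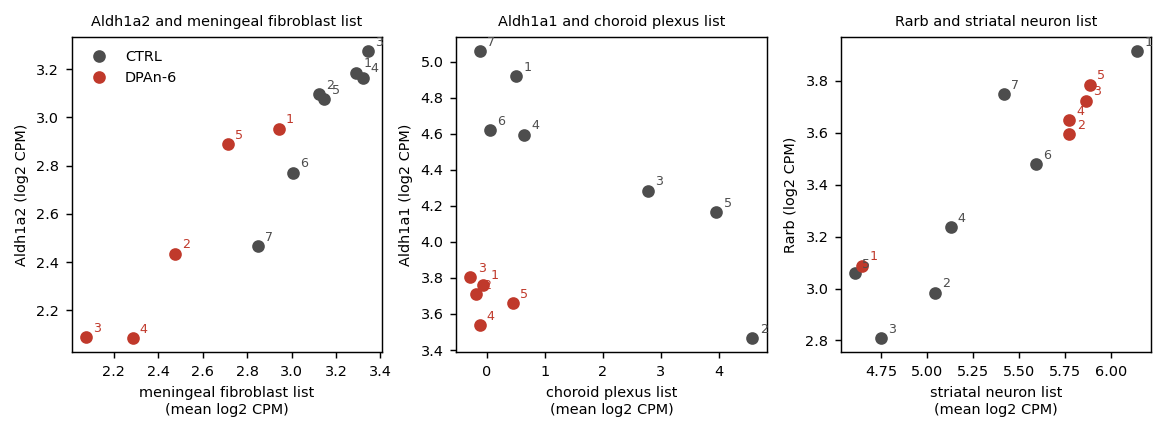
A gene's log2 CPM against the mean log2 CPM of a cell type marker list in each of the 12 mice, CTRL in grey and DPAn-6 in red, numbered by replicate; left Aldh1a2 and meningeal fibroblasts, middle Aldh1a1 and choroid plexus, right Rarb and striatal neurons. Aldh1a2 follows its list in both groups, the 3 CTRL mice with the highest choroid plexus values have the lowest CTRL values of Aldh1a1, and Rarb follows the striatal list.

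The retinol transport genes had opposite signs. Rbp4 (ENSMUSG00000024990; chr19:38116629-38125281, minus strand) encodes the retinol carrier. Its DPAn-6 values, mice 1 to 5, were 11.9, 12.1, 12.5, 12.5 and 14.4 CPM, and the lowest, median and highest in CTRL were 7.49, 9.71 and 11.1 CPM. All 5 DPAn-6 mice were above all 7 CTRL mice, and Rbp4 was the 1 gene of the 9 whose groups did not overlap, where 3.22% of all genes tested did not (1.73% with DPAn-6 higher and 1.49% with DPAn-6 lower). On the log2 CPM scale the means were 3.20 ± 0.21 (SD, n = 7) and 3.66 ± 0.11 (SD, n = 5). The log2 fold change was 0.43 (SE 0.11, 95% interval 0.19 to 0.67), a 1.35-fold higher level, with an adjusted p of 0.0603 by edgeR and an exact permutation p of 0.00379. CTRL 2, CTRL 5 and CTRL 3, the libraries with choroid plexus transcripts, were again the 3 lowest of the CTRL mice, at 7.49, 7.90 and 8.34 CPM. The other 4 CTRL mice had 9.71 to 11.1 CPM, still below all DPAn-6 mice. With 1 library left out the adjusted p of Rbp4 by edgeR ran from 0.0265 without CTRL 3 to 0.163 without DPAn-6 5. The omission of CTRL 3, with which 953 of all genes passed, was the only one that brought it below 0.05. With the choroid plexus list as a covariate its log2 fold change was 0.27 (SE 0.10, adjusted p = 0.430, edgeR), and without CTRL 2 and CTRL 5 together it was 0.34 (SE 0.09, adjusted p = 0.152, edgeR).

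Stra6 (ENSMUSG00000032327; chr9:58063788-58153996, plus strand) encodes the membrane receptor for the retinol carrier. In DPAn-6 mice 1 to 5 it had 10.8, 8.02, 4.68, 6.71 and 12.7 CPM, and in CTRL 9.06, 12.8 and 15.04 CPM (lowest, median and highest). The lowest 3 of all 12 mice were DPAn-6 mice, and the other 2 were within the CTRL range. The means were 3.59 ± 0.30 (SD, n = 7) and 3.02 ± 0.57 (SD, n = 5) log2 CPM. This gave a log2 fold change of −0.52 (SE 0.21, 95% interval −0.99 to −0.06; adjusted p = 0.255 by edgeR, exact permutation p = 0.0480). It was −0.15 in the 14-month mice alone and −0.06 with the meningeal list as a covariate, and the exact permutation p was above 0.05, at 0.0606 to 0.127, without any 1 of CTRL 1, 2, 4, 5 or 7 or DPAn-6 2, 3 or 4.

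Of the cytosolic carriers, Crabp2 was lower in DPAn-6 at low counts and Crabp1 was too low to test. Crabp2 (ENSMUSG00000004885; chr3:87948666-87953376, plus strand) encodes the protein that hands retinoic acid to its receptors in the nucleus. It had 1.03, 0.897, 1.06, 0.658 and 1.02 CPM in DPAn-6 mice 1 to 5 and 0.897, 1.87 and 2.52 CPM (lowest, median and highest) in CTRL, from 10 to 44 counts per library. The CTRL mean was above each of the 5 DPAn-6 mice, and CTRL 2 was the 1 CTRL mouse among them. The means were 0.81 ± 0.52 (SD, n = 7) and −0.08 ± 0.27 (SD, n = 5) log2 CPM. The log2 fold change was −0.96 (SE 0.25, 95% interval −1.52 to −0.41, adjusted p = 0.0699 by edgeR, exact permutation p = 0.00884). With 1 library left out the adjusted p ran from 0.0314 without CTRL 2 to 0.187 without DPAn-6 4 (edgeR). Of these omissions, only those of CTRL 2 and CTRL 3 (0.0416) brought it below 0.05. With the meningeal list as a covariate the log2 fold change of Crabp2 was −0.50 (SE 0.41, adjusted p = 1.00, edgeR). Crabp1 (ENSMUSG00000032291; chr9:54764748-54773110, plus strand), a cytosolic carrier linked to retinoic acid breakdown, had 2 to 24 counts per library and did not pass the filter. Its values were 0.489, 0.448, 0.453, 0.460 and 0.905 CPM in DPAn-6 and 0.103, 0.448 and 0.729 CPM (lowest, median and highest) in CTRL (exact permutation p = 0.319).

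Cyp26b1 (ENSMUSG00000063415; chr6:84571414-84593908, minus strand) encodes the cytochrome P450 that clears retinoic acid in brain. Its DPAn-6 values were 8.53, 10.8, 5.98, 6.05 and 13.4 CPM in mice 1 to 5, and the CTRL values were 6.79, 8.08 and 10.95 CPM (lowest, median and highest). The DPAn-6 mice spanned a wider range than the CTRL mice on both sides. Between the groups the log2 fold change was 0.11 (SE 0.19, 95% interval −0.32 to 0.54, adjusted p = 0.864 by edgeR, exact permutation p = 0.764), and it was −0.085 without DPAn-6 5. The other enzymes of its family, Cyp26a1 and Cyp26c1, had at most 3 counts in any library, so Cyp26b1 was the 1 gene of the family with measurable mRNA.

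Rarb (ENSMUSG00000017491; chr14:16430839-16819156, minus strand) encodes RARβ, and its promoter element is printed above. DPAn-6 mice 1 to 5 had 8.48, 12.1, 13.2, 12.5 and 13.8 CPM, and CTRL mice had 6.98, 9.40 and 15.04 CPM (lowest, median and highest). The values overlapped throughout, with 4 of 5 DPAn-6 mice above the CTRL mean and the highest value in a CTRL mouse. With means of 3.32 ± 0.41 (SD, n = 7) and 3.57 ± 0.28 (SD, n = 5) log2 CPM, it had a log2 fold change of 0.20 (SE 0.18, 95% interval −0.21 to 0.60, adjusted p = 0.693 by edgeR, exact permutation p = 0.266). It was −0.054 with the choroid plexus list and −0.17 with the meningeal list as a covariate. Rarb ran with the 8 markers of striatal neurons, with r = 0.908 over 12 mice after centring (permutation p = 0.00062, adjusted 0.0279 over 90 pairs; rho = 0.846, permutation p = 0.00209), r = 0.938 without CTRL 2 and CTRL 3, and r = 0.919 without CTRL 2 and CTRL 5. The summed level of these markers was 349 to 863 CPM in CTRL and 315 to 684 CPM in DPAn-6, and none of them was at 0 in all libraries. Rarb also ran with the oligodendrocyte list (r = 0.834, permutation p = 0.00219, adjusted 0.0493, and rho = 0.804, permutation p = 0.00698). Without CTRL 2 and CTRL 3, the mice most distant from the median Rarb value, that r was 0.756. The Rarb exons overlap those of Top2b on the opposite strand, which had 1361 to 2684 counts per library against 107 to 365 for Rarb. Which strand was counted is not stated, and reads of the overlap could belong to either gene.

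Of the 90 pairs of gene and list, 11 had a permutation p below 0.05 for r and 4 after adjustment. The fourth is that of Aldh1a1 and the choroid plexus list, for which no pooled r is given because CTRL 2, CTRL 3 and CTRL 5 stand apart on that list. Among the 36 pairs within the 9 genes, 4 had an unadjusted permutation p below 0.05 and 0 an adjusted one. The highest r was that of Aldh1a1 and Rbp4, 0.751 after centring (permutation p = 0.0203, adjusted 0.372), though the groups differed in opposite directions for these genes. CTRL 2, CTRL 3 and CTRL 5 were the lowest CTRL mice for both genes, which limits this r as well.

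Compared per length, the carrier came out highest. In CPM per kb of exon over all 12 mice, the mean level was 7.96 ± 1.57 (SD, n = 12) for Rbp4, 3.80 for Aldh1a1, 3.16 for Aldh1a2, 2.09 for Rarb, 1.84 for Stra6, 1.59 for Cyp26b1, 1.09 for Crabp2, 0.603 for Crabp1 and 0.203 for Aldh1a3. Rbp4 was above Aldh1a1 in 12 of 12 libraries, and Cyp26b1 was above Crabp2 in 11. Neighbours in the middle of this order were not separated beyond their spread: Aldh1a1 was above Aldh1a2 in 7 libraries, Rarb above Stra6 in 6 and Stra6 above Cyp26b1 in 7 of 12. In CTRL the order of these 3 was Stra6, Rarb and Cyp26b1, and in DPAn-6 it was Rarb, Cyp26b1 and Stra6. The level of Aldh1a1 was 4.64 ± 1.53 CPM per kb (SD, n = 7) in CTRL, above the 3.59 ± 0.64 (SD, n = 7) of Aldh1a2, and in DPAn-6 it was 2.62 ± 0.18 (SD, n = 5) beside 2.55 ± 0.75 (SD, n = 5).

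**Figure D3:**
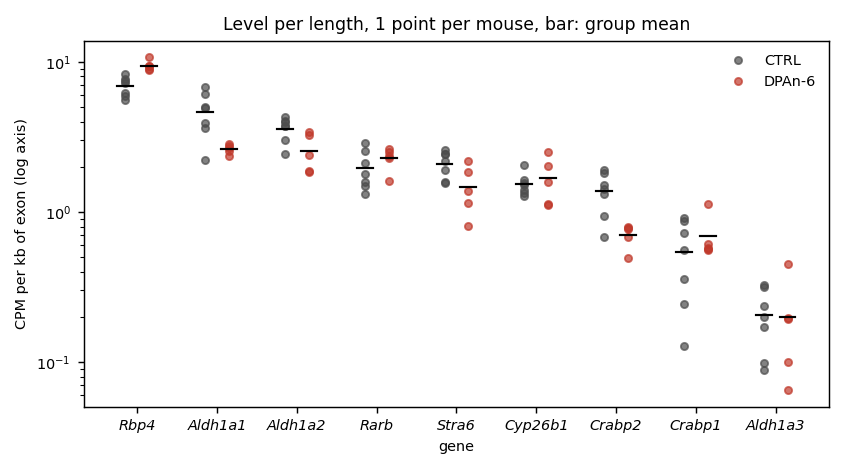
Level of each gene in CPM per kb of exon on a log axis, 1 point per mouse, CTRL in grey and DPAn-6 in red, with bars for the group means. The genes run from Rbp4, at 5.58 to 10.7, down to Aldh1a3, at 0.0653 to 0.447.

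Age entered the picture for several of the genes, with few mice behind it. In DPAn-6 the 12-month mice, 3 and 4, were the lowest 2 of all 12 mice for Aldh1a2, Stra6 and Cyp26b1. In CTRL the 12-month mice, 1 and 7, were the highest 2 for Aldh1a1 and Rarb. Stra6 had a log2 fold change of −1.30 at 12 months and −0.16 at 14 months, with an adjusted interaction p of 0.905 by edgeR (0.00511 unadjusted). That of Aldh1a3 was −1.57 and 0.53 (0.0253 unadjusted, edgeR) and that of Cyp26b1 −0.37 and 0.35 (0.0380 unadjusted, edgeR). After adjustment 0 of the 8 passed by edgeR, where 0.00637% of all genes did (1 gene), and 3 of 8 had an unadjusted p below 0.05, where 4.26% of all genes did. Aldh1a1 was lower in DPAn-6 at both ages (−1.32 and −0.60), as were Crabp2 (−0.83 and −0.99) and Aldh1a2 (−0.79 and −0.34), and Rbp4 was higher at both (0.31 and 0.48). The 12-month values rest on 2 CTRL and 2 DPAn-6 mice. An exact permutation test of the 14-month mice alone has fewer splits than one of all 12, so its smallest p is higher. In the 14-month mice alone, 5 CTRL and 3 DPAn-6, the exact permutation p was 0.0357 for Rbp4, and it was above 0.05 for the other 4 genes that had been below it, at 0.0893 for Aldh1a2 and Crabp2, 0.125 for Aldh1a1 and 0.589 for Stra6. By edgeR 0 of the 8 passed in these mice (3 at an unadjusted p below 0.05), with an adjusted p of 0.376 for Rbp4.

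The wider pathway was described by 49 other retinoid genes, of which 35 passed the filter. In DPAn-6, 14 of the 35 were higher and 21 lower, where 51.3% of all genes tested were lower. The median of their log2 fold changes was −0.10, and 1 passed an adjusted p of 0.05 by edgeR, where 1.55% of all genes did. The 1 gene was Rpe65, whose product isomerises retinyl esters in the visual cycle. It had 1.196, 1.29, 1.21, 1.58 and 1.24 CPM in DPAn-6 mice 1 to 5 and 1.11, 3.39 and 3.84 CPM (lowest, median and highest) in CTRL, from 17 to 65 counts per library. The groups overlapped through CTRL 3, the lowest of the 12. Its log2 fold change was −1.16 (SE 0.26, 95% interval −1.73 to −0.59; adjusted p = 0.0371 by edgeR, exact permutation p = 0.0126), and the adjusted p ran from 0.00115 without CTRL 3 to 0.114 without DPAn-6 3. It was above 0.05 when any 1 of the other libraries except CTRL 5 was left out.

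By role, all 4 carriers and storage genes tested were lower in DPAn-6 in the fit. Ttr had a log2 fold change of −6.01 (SE 1.46, adjusted p = 0.0553, edgeR). It had 1530, 941 and 167 CPM in CTRL 2, CTRL 5 and CTRL 3, the libraries with choroid plexus transcripts. The other CTRL mice had 6.004 to 24.1 CPM and the DPAn-6 mice 1.79 to 14.7. In DPAn-6, 4 of 5 mice were below every CTRL mouse. The part of the choroid plexus transcripts in the Ttr difference was not tested. The 10 retinol and retinal enzymes were split, 4 higher and 6 lower. Retsat, a retinol saturase, had −0.23 (SE 0.10, adjusted p = 0.315, edgeR), and Adh5, the enzyme with the most counts, had 0.13 (SE 0.08, adjusted p = 0.513, edgeR). Fabp5, which delivers retinoic acid to another nuclear receptor, had 0.17 (SE 0.12, adjusted p = 0.582, edgeR). Among the 5 receptors other than RARβ, 3 were higher and 2 lower. Rara, which encodes RARα, had a mean log2 CPM of 3.65 ± 0.21 (SD, n = 7) for CTRL and 4.04 ± 0.22 (SD, n = 5) for DPAn-6, with 4 of 5 DPAn-6 mice above all CTRL mice. The difference was 0.37 (SE 0.12, adjusted p = 0.142 by edgeR, exact permutation p = 0.0139). Rxrb, the receptor with the most counts, had 0.09 (SE 0.14, adjusted p = 0.836, edgeR). All 6 coregulators were lower in the fit, none at an unadjusted p below 0.05, with −0.17 (SE 0.11, adjusted p = 0.528, edgeR) for the corepressor Ncor1. Of 9 retinoic acid responsive genes tested, 6 were higher and 3 lower, none at an unadjusted p below 0.05, and Nrgn, a synaptic gene with 27613 to 57392 counts, had 0.11 (SE 0.08, adjusted p = 0.553, edgeR). The 14 genes that did not pass the filter had at most 11 counts in any library, and Stra8 and Hoxb1, targets known from the germ line and hindbrain, had none. Retsat and Rara are named because their unadjusted edgeR p was below 0.05, a choice made after their values were seen.

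**Figure D4:**
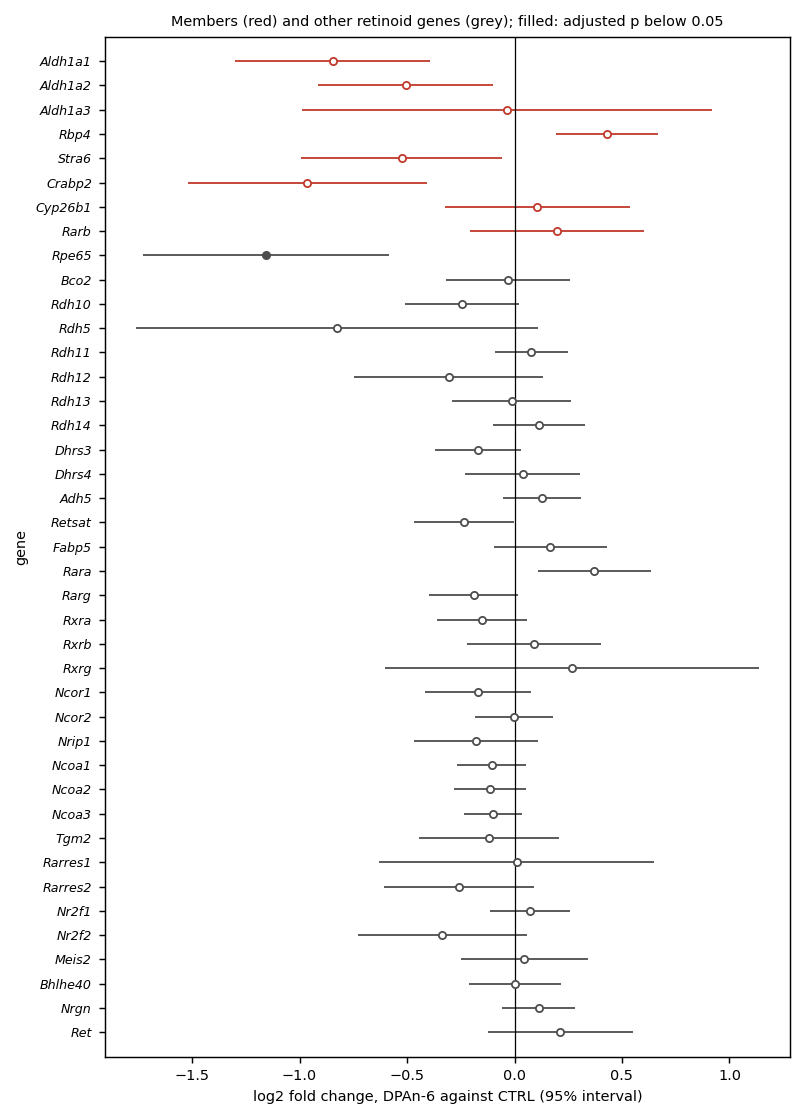
Log2 fold change of DPAn-6 against CTRL with its 95% interval from the edgeR fit, for the 8 genes tested of the 9 (red) and for other retinoid genes tested (grey, without Ttr, whose interval is far wider); a filled point has an adjusted p below 0.05. Only Rpe65 is filled, and Rbp4 and Rara have intervals wholly above 0.

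The genes whose values ran most like those of the 3 genes with the lowest p were found by Pearson's r of log2 CPM over 12 mice after centring each group, among all genes tested, as a description. For Aldh1a1 they were Eif3c (r = 0.926), Cyp2j12 (0.915) and Chac1 (0.914). For Rbp4 they were Tmem126a (0.877), Rimbp3 (0.877) and Nudt3 (0.872). For Crabp2 they were Rmdn2 (0.897), A330035P11Rik (0.892) and Polr3b (0.890). None of these 9 had an adjusted p below 0.05 between the groups by edgeR. The values share libraries and depth.

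The other marker lists placed beside these genes moved by differing amounts. All 5 border macrophage markers tested were lower in DPAn-6 and 3 passed by edgeR. The summed level of all 7 on the list was 4.94 to 7.14 CPM in DPAn-6 against 11.3 to 17.0 in CTRL, with no overlap. Microglial markers were lower for 8 of 8 (2 passed, 529 to 705 against 702 to 1013 CPM) and mural cell markers for 10 of 10 (1 passed, 360 to 391.5 against 419 to 452 CPM). For endothelium 6 of 10 were lower and for astrocytes 8 of 9, with 0 passing by edgeR in either (2 and 3 at an unadjusted p below 0.05). For oligodendrocytes 6 of 8 were higher and for striatal neurons 8 of 8, with 0 passing by edgeR (4 and 1 at an unadjusted p below 0.05). No marker of these lists was at 0 in all libraries. Over all genes tested, 51.3% were lower in DPAn-6 and 1.14% were lower and passed by edgeR. An unadjusted edgeR p below 0.05 was reached by 14.5% of all genes. These lists entered the 90 correlations above and no covariate fit, and their part in the group differences of the 9 genes was not tested.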

How the data were processed

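RNA-Seq was performed on the cortex of 12 E4FAD mice, 1 library each. The authors selected poly(A) mRNA (KAPA mRNA HyperPrep), aligned the reads with STAR (2.5.3a in the submitters' processing notes) to GRCm38 and deposited raw read counts per gene, with no normalization. All 12 samples were mapped to groups by their labels and used. Gene names, positions and exon lengths came from GENCODE M21 of GRCm38, which matched 50339 of 50563 identifiers. The members and gene lists were chosen with earlier results of these data known.

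The quasi-likelihood test of edgeR 4.0.16, in R 4.3.3, was applied to the counts (TMM, filterByExpr by group, glmQLFit and glmQLFTest, no covariate), as the unit calls for, while the study names limma-voom. The test was also run on simulated data. The alternatives were DESeq2 1.42.0, limma-voom (limma 3.58.1) with and without sample weights, no TMM factors, all genes with a count, genes with 1 CPM or more in 5 libraries, age, Xist or a marker list as covariate, 14-month mice only, a replicate block and each library left out. Removal of CTRL 2 and CTRL 5 together and of the gene Gm42418 was added after the data were seen. Exact tests enumerated 792 splits (smallest p 0.00126). Correlations used 100000 permutations within groups (Python 3.11.15, scipy 1.17.1). Gene intervals assumed 10 degrees of freedom.

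The genes named are the 9 members, the other retinoid genes that passed and the one with the most counts in each role, the 3 genes most like each of the 3 members with the lowest p, Ttr and list markers. The value of 1 retinoid gene is not reported here. Each library is 1 mouse, so the mouse is the unit of the group comparisons, and genes with few counts are measured less precisely.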

Additional observations from a re-analysis of the deposited data

Results flagged for a closer look

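A single mouse stood apart from the rest of its group, by Dixon's criterion at the 95% level, in 4 of 20 groups examined (10 genes in 2 groups), where chance gives about 1 in 20. DPAn-6 5 had the highest DPAn-6 value of Rbp4 (3.85 log2 CPM) and of Crabp1 (−0.11 log2 CPM, 24 counts). DPAn-6 1 had the lowest DPAn-6 value of Rarb, 3.09 log2 CPM, and DPAn-6 4 had the highest DPAn-6 value of Rpe65, 0.69 log2 CPM.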

How the results depend on the processing

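Over 233 values of the log2 fold changes of the 8 genes and Rpe65 under the alternatives, 191 kept their direction and their side of the threshold, 15 passed it, 16 no longer did and 11 turned direction. None of the 8 passed by edgeR as reported (5 at an unadjusted p below 0.05). By DESeq2 and by limma-voom with sample weights 3 passed, and 1 passed with no filter, with age or the choroid plexus list as a covariate, or without CTRL 2 and CTRL 5. Each library left out in turn gave 0 to 3, with 3 without CTRL 3 and 2 without CTRL 2. Of the 35 other retinoid genes 1 passed. DESeq2 gave 2, no filter 2, sample weights 3, and limma-voom, either list covariate, 14-month mice, the replicate block and the removal of CTRL 2 and CTRL 5 gave 0. Leaving out 1 library gave 0 to 4, with 4 without CTRL 3. The exact permutation test, with 5 genes below 0.05, gave 3 to 5. The promoter search gave 1 promoter, and 0 with AGGTCA alone.

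Direction turned for Aldh1a2 with the meningeal list (0.30), for Aldh1a3 with that list (1.31), in 14-month mice (0.54) and without 1 library (−0.53 to 0.20), for Cyp26b1 without DPAn-6 5 (−0.085, range −0.085 to 0.23) and for Rarb with the meningeal (−0.17) or choroid plexus list (−0.054). The cause was not tested. Over all genes, 243 passed as reported, 671 by DESeq2, 1267 with sample weights, 0 and 45 with the meningeal and choroid plexus lists, 9 in 14-month mice, 69 with the replicate block, 85 without CTRL 2 and CTRL 5 and 64 to 953 without 1 library. Deviations of same-numbered mice from their group means had r of −0.125 to 0.220, values that cannot show whether any mice were paired. With the replicate block the log2 fold changes were −0.62 for Aldh1a1, 0.53 for Rbp4, −0.99 for Crabp2 and −1.03 for Rpe65 (adjusted p = 0.134, edgeR). Counts of at most 44 per library limit Aldh1a3, Crabp1 and Crabp2.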
